A study of Arabidopsis thaliana with 4 samples.

Results

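Plants of 1 Arabidopsis thaliana line that overexpresses ERD15 were sprayed with abscisic acid (ABA) or with a mock solution, and the transcripts of their rosette leaves were compared 90 min later. The comparison uses 2 of the 4 ATH1 arrays of the study, 1 with ABA and 1 with mock, chosen by their titles. The other 2 arrays, from plants with the empty pCP60 vector under the same sprays, are set beside them. All plants were in the Col-0 background, had germinated on kanamycin and were 3 weeks old, and the overexpressor arrays both come from line 52, so that 1 line stands for the genotype. The ABA spray held 100 µM ABA in 0.07% ethanol, and the mock spray held 0.07% ethanol in water. Leaves of 3 plants were pooled for each overexpressor array and for the vector ABA array, and the labels of the vector mock array do not say how many were pooled. One field of the overexpressor labels calls the line a knock-out while title and source name call it an overexpressor, the reading used here, and no probe set is paired with ERD15 in the annotation used here, so the genotype was not checked against its transcript. With 1 array a side there is no replicate, no test was made, and every difference below compares 2 arrays and not 2 conditions.

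ABA is the hormone with which plants answer drying and osmotic stress. It binds soluble receptors that then block a class of protein phosphatases, which frees SnRK2 kinases to phosphorylate bZIP transcription factors. Among the genes that ABA is known to induce in leaves are those for dehydrins and other late embryogenesis abundant (LEA) proteins, and the hormone also slows growth, which involves enzymes of the cell wall. ERD15 is a small acidic protein whose transcript appears early on dehydration. The receptors, phosphatases and SnRK2 kinases themselves are not analysed here.

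Values are MAS5 signals, which estimate the brightness of a probe set on a linear scale and have no absolute unit. They were scaled to a common trimmed mean of 100 on every array and raised to a floor of 13.3 for the log2 differences. A gene counted as measured with a mean signal of at least 29.0 over the 4 arrays. Of the 7322 genes measured, 367 (5.01%) were at least 2-fold higher with ABA in the overexpressor and 260 (3.55%) at least 2-fold lower. Over all non-control probe sets past the filter the shares were 5.03% and 3.71%, and over the 1053 genes with a symbol, from which most members of the gene lists below were drawn, 4.56% and 3.51%. Log2 differences were above 0 for 55.3% of genes and below 0 for 44.7%. The median log2 difference over all genes was 0.06, and the central 95% of genes lay between -1.12 and 1.24. The split depended on the scaling. It was 219 higher and 316 lower with quantile normalization, 204 and 329 with a loess curve, and 208 and 419 with each array centred on its median, which moves the median of all genes by -0.19. At least 2-fold under all 4 scalings were 162 genes higher (2.21%) and 248 lower (3.39%), and the genes named first below come from these.

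The 2-fold differences were most frequent among dim genes. With the genes cut by signal into 5 bins of nearly equal size, the dimmest bin, at signals of 29.0 to 44.5, held the most. In it 198 were at least 2-fold higher (13.5%) and 81 lower (5.53%), and the median log2 difference over the bin was 0.30. In the brightest bin 30 were higher (2.05%) and 39 lower (2.66%), with a median of -0.03. Quantile normalization brought the median of the dimmest bin to 0.05. No detection call was used, so that dim genes may include some at background.

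**Figure D1:**
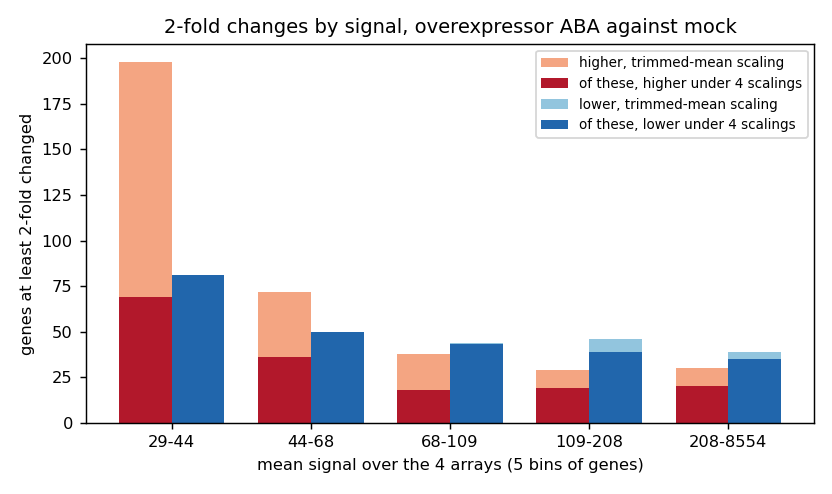
Number of genes (y axis) at least 2-fold higher (red) or lower (blue) with ABA in the overexpressor, in 5 bins of genes by mean signal over the 4 arrays (x axis). Pale bars count the trimmed-mean scaling and dark bars the genes that passed under all 4 scalings. In the dimmest bin 198 genes were higher under the first and 69 under all 4, against 30 and 20 in the brightest bin.

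The overexpressor arrays also differed in control and overall values. The highest deposited signal was 6232 with mock and 9511 with ABA in the overexpressor. The control for 25S ribosomal RNA read 262 with mock and 832.5 with ABA, and 1833 and 2109 in vector plants. The actin control read higher at the 3' end than at the 5' end of the transcript on every array. The ratio was 5.83 with mock and 6.26 with ABA in the overexpressor, and 5.33 and 6.52 in vector plants. Overexpressor mock was the lowest of the 4 arrays for 2118 genes (28.9%) and overexpressor ABA for 1472 (20.1%). The part of these array differences in the results was not tested. Of the leaf markers looked for, 3 of 12 mesophyll genes were measured, and RCA, the activase of Rubisco, read 4094, 7032, 9006 and 6908 on overexpressor mock, overexpressor ABA, vector mock and vector ABA. In the same order LHCB4.2 read 3899, 5803, 7639 and 6040, and PORB read 2091, 2278, 2694 and 997. PORB was thus nearly level on the overexpressor arrays (log2 0.12, or -0.03 with quantile normalization) and lowest on vector ABA. The only other markers measured were 1 of 12 of guard cells and 1 of 8 of roots, at no more than 61.7 and 55.6. The markers of vasculature, of epidermis and of flower, pollen and seed were not measured, so the presence of those cells was not checked.

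The 3 strongest differences on the higher side were those of a ubiquitin ligase, a TRAF-like protein and the cell wall enzyme XTH18. Under all 4 scalings, the 15 highest genes ranged from 4.80-fold to 14.2-fold, 10 of them were also at least 2-fold higher with ABA in vector plants, and 8 have no symbol. PUB19, a U-box E3 ubiquitin ligase, read 30.0 on overexpressor mock, 427 on overexpressor ABA, 34.6 on vector mock and 210.0 on vector ABA, which is 14.2-fold higher with ABA in the overexpressor (log2 3.83) beside a log2 difference of 2.60 in vector plants. Both ABA arrays stood above both mock arrays, and the overexpressor ABA array was the highest. ZW9, which encodes a TRAF-like protein, read 34.1 and 396 on the overexpressor mock and ABA arrays and 55.5 and 499.5 on those of vector plants, with log2 differences of 3.54 and 3.17. AT1G73480 read 88.1 and 623 in the overexpressor and 80.6 and 568 in vector plants, a log2 difference of 2.82 in each. For both genes the mock arrays lay within 2-fold of each other and the ABA arrays far above them. AT2G28400 read 48.7 and 257, then 48.6 and 204, with log2 differences of 2.40 and 2.07. AT1G52000 was under the floor on both mock arrays, at 12.0 in the overexpressor and 1.83 in vector plants, and read 85.0 and 80.1 with ABA, at least 6.42-fold higher in the overexpressor. BGLU40, a beta-glucosidase of the family that frees hormones and defence compounds from their sugars, read 147 and 847 in the overexpressor against 208 and 730.3 in vector plants, with log2 differences of 2.53 and 1.81. In all 3 the ABA arrays of both genotypes stood above both mock arrays.

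Among the 15 highest, 5 were under 2-fold in vector plants. SWEET16, a sugar carrier of the vacuole membrane, read 16.2 on overexpressor mock and 90.8 on overexpressor ABA, 5.6-fold higher (log2 2.49), while vector mock and vector ABA read 51.9 and 42.9 (log2 -0.27). Its lowest and highest signals were both on overexpressor arrays, with the vector arrays between them. AT1G63240 had the same order: 6.07, under the floor, on overexpressor mock and 72.8 on overexpressor ABA, at least 5.49-fold higher, with 42.7 and 30.0 in vector plants. AT5G10420 read 10.7 and 67.4, at least 5.08-fold higher, against 24.0 and 19.9. The overexpressor mock array was the lowest of the 4 for each of these genes. The genes were picked for a large difference in the overexpressor and grouped by a small one in vector plants, which favours this order. Overexpressor mock was the lowest array for 121 of the 162 genes higher under all 4 scalings. For AT5G10420 only the overexpressor ABA signal lay above the level that the filter sets for the mean. AT4G33905 read 19.4 and 107 in the overexpressor and 45.2 and 79.3 in vector plants, with log2 differences of 2.47 and 0.81. AT3G07350 read 1.77, under the floor, and 65.1, at least 4.91-fold higher, against 35.7 and 67.8 in vector plants (log2 0.92). These last genes were higher with ABA in vector plants too, by less than 2-fold. The difference between the genotypes was not tested for any of them.

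The lower side was led by AT4G21870 and AT5G62360, which have no symbol, as do 6269 of the 7322 genes measured. Under all 4 scalings the 15 lowest ranged from 4.70-fold to 33.0-fold, 12 have no symbol, 8 were also at least 2-fold lower with ABA in vector plants and 7 were under 2-fold there. AT4G21870 read 2095 on overexpressor mock, 63.5 on overexpressor ABA, 4166 on vector mock and 132 on vector ABA, 33.0-fold lower with ABA in the overexpressor (log2 -5.04) beside a log2 difference of -4.98 in vector plants. AT5G62360 read 401 and 15.9 in the overexpressor and 513 and 37.4 in vector plants, with log2 differences of -4.65 and -3.78. Both mock arrays stood well above both ABA arrays, and overexpressor ABA was the lowest array for each. TBL45, of the family that adds acetyl groups to wall polysaccharides, read 541 and 70.1 in the overexpressor and 962 and 143 in vector plants, 7.73-fold lower in the overexpressor (log2 -2.95 beside -2.75). AT3G52950 read 98.6 and 18.2, then 146 and 30.5, with log2 differences of -2.44 and -2.26. The same order, mock above ABA in both genotypes, held for AT2G04795 (log2 -2.80 in the overexpressor and -1.55 in vector plants), AT1G80750 (-2.41 and -1.05) and AT2G36970 (-2.23 and -1.60).

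The other 7 genes of the lowest 15 were under 2-fold in vector plants. Their choice by a large overexpressor difference favours an extreme signal on an overexpressor array. Overexpressor ABA was the lowest array for 185 of the 248 genes lower under all 4 scalings. AT5G12110 read 145 on overexpressor mock and 16.2 on overexpressor ABA, 8.94-fold lower, against 102 and 96.1 on the vector arrays. Here overexpressor ABA stood alone and the other 3 arrays lay close together. AT2G44240 was high in the overexpressor alone, at 698 with mock and 95.1 with ABA, 7.34-fold lower, while both vector arrays were near or under the floor, at 3.61 and 13.9. ZCF37 read 76.0 and 9.80 in the overexpressor, at least 5.73-fold lower, against 13.4 and 20.6 in vector plants, so that only overexpressor mock stood far above the floor. AT3G57220 read 66.7 and 6.83, at least 5.03-fold lower, against 43.5 and 39.7. AT1G51610 read 63.1 and 12.2, at least 4.76-fold lower, against 40.8 and 34.8. In both, overexpressor ABA lay under the floor and the vector arrays lay within 2-fold of each other. AT5G60400 had a log2 difference of -2.33 in the overexpressor and -0.96 in vector plants, just under 2-fold. AT5G46560 read 62.2 and 10.4 in the overexpressor, at least 4.70-fold lower, and 29.4 and 58.8 in vector plants, where the ABA array was the higher by just under 2-fold (log2 1.00).

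**Figure D2:**
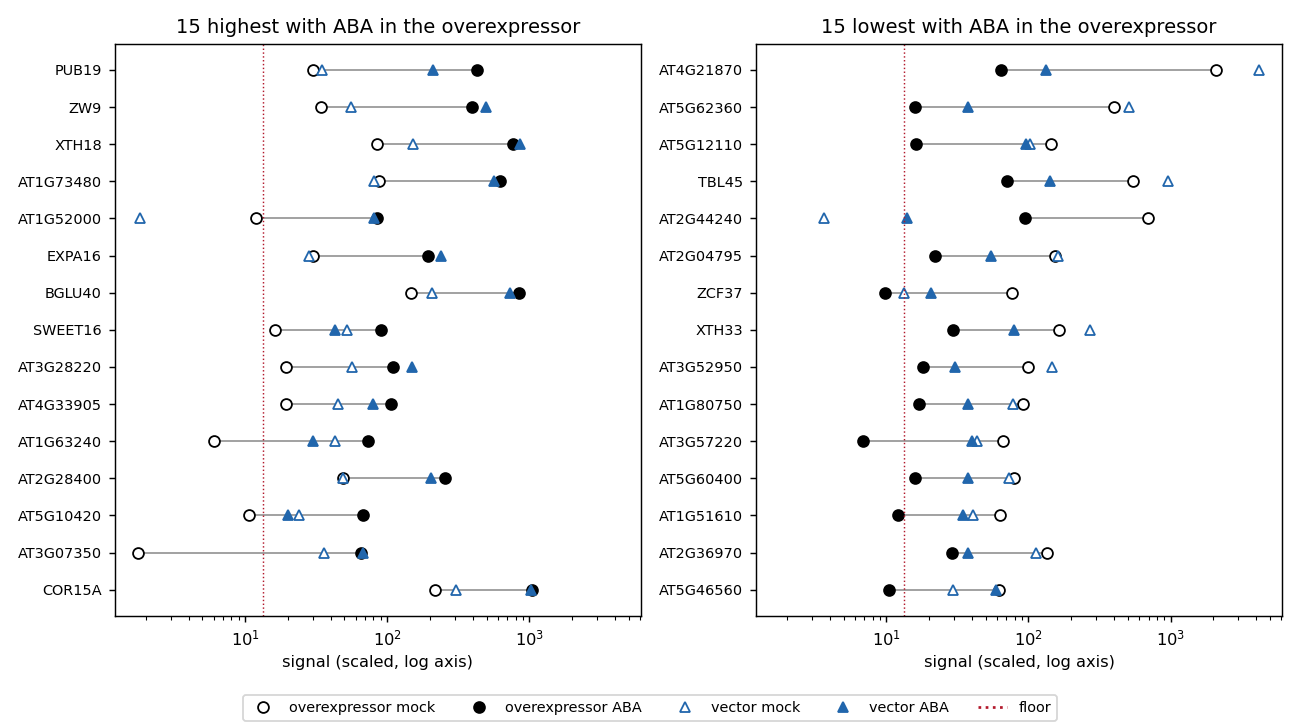
Scaled signal on a log axis (x axis) of the 15 highest and 15 lowest genes under all 4 scalings (y axis). Open and filled circles are overexpressor mock and ABA joined by a line, open and filled triangles are vector mock and ABA, and the dotted line is the floor of 13.3; for PUB19 the overexpressor signals are 30.0 and 427, and for AT4G21870 they are 2095 and 63.5.

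**Figure D3:**
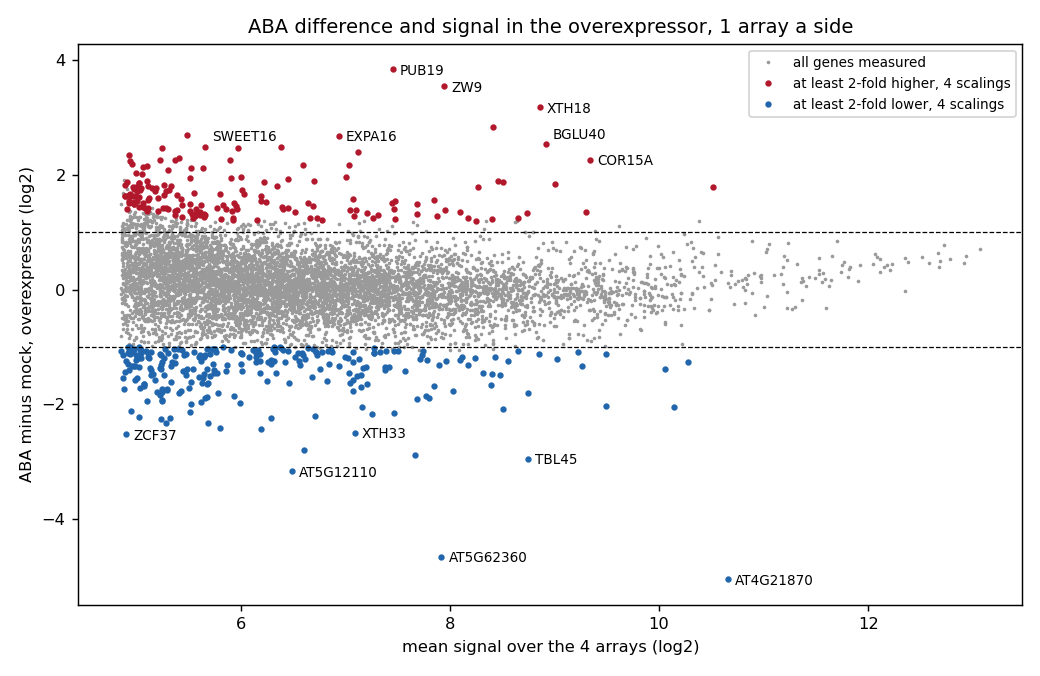
Log2 difference of ABA minus mock in the overexpressor (y axis) against the log2 mean signal over the 4 arrays (x axis) for the 7322 genes in grey, with the 162 genes at least 2-fold higher under all 4 scalings in red and the 248 lower in blue. Dashed lines mark 2-fold, and the spread is widest at the dim end.

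The genes that protect cells against drying were on the higher side. All 6 measured genes for dehydrins, COR and LEA proteins had log2 differences above 0, 4 were at least 2-fold higher and none lower, and their median was 1.2, against 0.06 over all genes. The median was 1.10 with quantile normalization and with loess and 1.01 with median centring, where LEA26 came to -0.02. In vector plants 2 of the 6 were at least 2-fold higher and the median was 0.38. COR15A, a protein of the chloroplast stroma that stabilises membranes in the cold, read 217 on overexpressor mock, 1044 on overexpressor ABA, 305 on vector mock and 1033 on vector ABA, 4.80-fold higher in the overexpressor (log2 2.26 beside 1.76). COR47, a dehydrin, read 579 and 1985 in the overexpressor and 1365 and 1924 in vector plants, with log2 differences of 1.78 and 0.50. The ABA arrays of the genotypes nearly met for both genes, and overexpressor mock was the lowest array. LTI30, a further dehydrin, read 83.6 and 211, then 76.9 and 220.2, with log2 differences of 1.33 and 1.52. LEA27 (AT2G46140) read 30.4 and 63.8 in the overexpressor against 52.2 and 51.6 in vector plants (log2 1.07, or 0.86 with quantile normalization). COR15B, the neighbour of COR15A, had log2 0.78, and LEA26 (AT2G44060) 0.17.

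Cell wall genes went both ways. XTH enzymes cut and rejoin the xyloglucan that ties cellulose together, and of the 7 measured 3 were at least 2-fold higher and 1 lower. XTH18 read 84.5 on overexpressor mock, 763 on overexpressor ABA, 151 on vector mock and 858 on vector ABA, 9.03-fold higher in the overexpressor (log2 3.17 beside 2.51). Its neighbour XTH19 read 10.01, under the floor, and 49.3, at least 3.72-fold higher, against 27.8 and 50.8 in vector plants. These paralogs lie side by side and share sequence, so that their probe sets may not keep them apart. XTH20 read 19.2 and 39.6 (log2 1.05, or 0.74 with quantile normalization). XTH33 ran the other way, at 165 and 29.3 in the overexpressor and 272 and 79.2 in vector plants, 5.63-fold lower (log2 -2.49 beside -1.78). Expansins loosen the wall without cutting it. EXPA16 read 30.2 and 193 in the overexpressor and 28.2 and 239 in vector plants, 6.39-fold higher (log2 2.67 beside 3.08), and it was the only one of 10 expansin genes past 2-fold. EXLA1 and EXLA2 had log2 differences of 0.61 and 0.58 in the overexpressor beside 1.62 and 1.59 in vector plants, and EXPA8 was at the low end with -0.70.

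Genes for wall polysaccharides showed the same mixture. Of 11 genes for cellulose synthase-like proteins and xylan, 3 were at least 2-fold higher and 1 lower. IRX15-L, needed for xylan, read 35.5 and 101 in the overexpressor and 31.4 and 76.9 in vector plants (log2 1.5 and 1.29). GUT2, a xylan synthesis enzyme, had log2 1.10, and CSLC12, of the family that makes the xyloglucan backbone, had 1.00, beside -0.34 and -0.27 in vector plants. CSLA03, of the mannan synthase family, had log2 -1.0. Only IRX15-L stayed past 2-fold under all 4 scalings. Of 13 TBL genes, TBL26 was at least 2-fold higher (log2 1.24) and TBL45, above, lower. For TBL40 (AT2G31110) 2 probe sets disagreed in size, with log2 differences of -0.88 and -3.20. ATPMEPCRB, a pectin methylesterase, read 195 and 444 in the overexpressor and 82.9 and 576 in vector plants, with log2 differences of 1.18 and 2.80. Its overexpressor difference was 0.99 with median centring. PMEPCRF, another, read 1079 and 603, then 373 and 607, and had log2 differences of -0.84 and 0.70. GH9C2, an endoglucanase, was past 2-fold at log2 1.04, or 0.83 with quantile normalization, as 1 of 5 of its family.

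**Figure D4:**
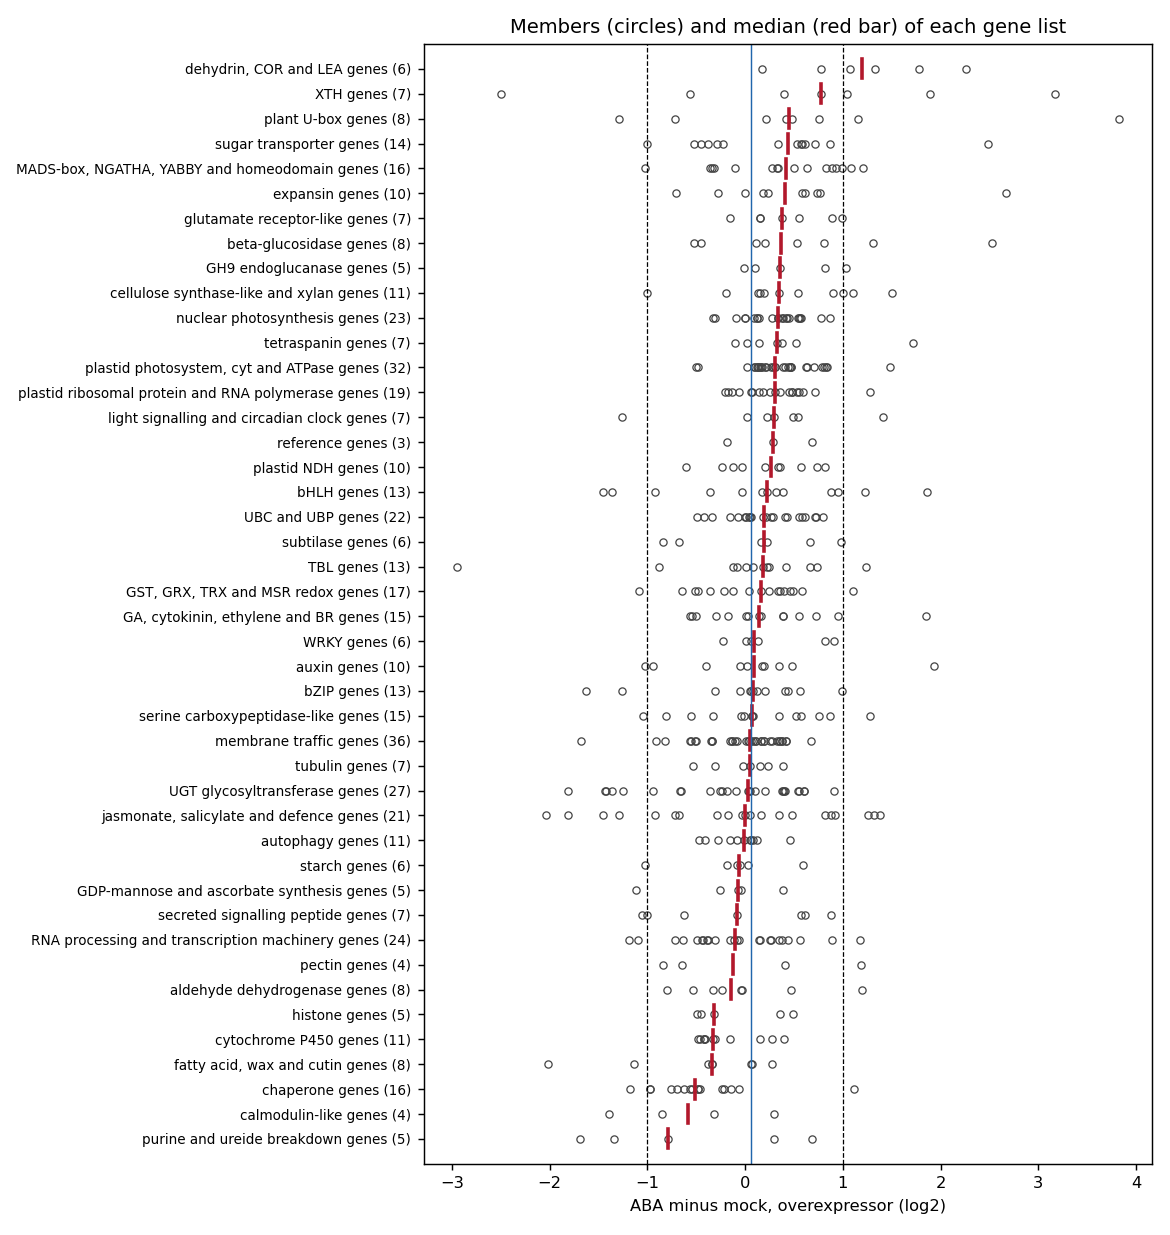
Log2 difference of ABA minus mock in the overexpressor (x axis) for each measured member (circles) of the 44 gene lists (y axis, with the number measured). Red bars are list medians, the blue line is the median of all genes, 0.06, and dashed lines mark 2-fold; the dehydrin, COR and LEA list stands highest at 1.2 and the list of purine and ureide breakdown lowest at -0.79.

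Genes of protein turnover differed singly. Of 8 plant U-box genes, PUB19 and PUB25 (log2 1.15, or 0.88 with quantile normalization) were at least 2-fold higher and PUB22 was lower. PUB22, which with PUB23 damps immune signalling, read 32.5 and 10.6, under the floor, in the overexpressor, at least 2.45-fold lower, and 62.6 and 15.6 in vector plants. PUB23 read 75.2 and 45.7, then 21.7 and 46.6, with log2 differences of -0.72 and 1.10. None of 22 genes for ubiquitin-conjugating enzymes and ubiquitin-specific proteases was past 2-fold, and they ranged from -0.49 for UBP19 to 0.80 for UBP20. Of 11 autophagy genes none was past 2-fold, from -0.47 for ATG8E to 0.46 for ATG8H, which encode the protein that coats the autophagosome. The shares past 2-fold over all genes were 5.01% higher and 3.55% lower, so a count of none on such short lists says little.

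Glycosyltransferases of the UGT family, which attach sugars to hormones and secondary metabolites, had 5 of 27 measured members at least 2-fold lower and none higher. These 5 stayed past 2-fold under all 4 scalings, while the median of the family was 0.03 and turned to -0.13 with quantile normalization, -0.15 with loess and -0.17 with median centring. Over all genes 3.55% were at least 2-fold lower in the overexpressor and 5.01% higher. In vector plants 5 of the 27 were at least 2-fold higher with ABA and 3 lower, with a median of -0.27. UGT85A4 read 68.5 and 25.6 in the overexpressor and 115 and 23.2 in vector plants (log2 -1.42 and -2.32). UGT85A2 read 212 and 82.5, then 188 and 94.4 (log2 -1.36 and -0.99). UGT72E1, which glucosylates lignin precursors, read 102 and 42.8, then 127 and 34.7 (log2 -1.25 and -1.87). In these 3 both mock arrays lay above both ABA arrays. UGT78D1, which adds rhamnose to flavonols, read 35.8 and 10.2 in the overexpressor, at least 2.70-fold lower, and 43.4 and 30.0 in vector plants. UGT76B1 is described with the defence genes. At the high end stood UGT76E11 with 0.91 and UGT84A3 with 0.60, both under 2-fold. Beta-glucosidases act in the opposite direction, and 2 of 8 were at least 2-fold higher and none lower. BGLU44 read 136 and 337 in the overexpressor beside 148 and 201 in vector plants (log2 1.31 and 0.44).

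Jasmonate, salicylate and defence genes were split, with 3 of 21 at least 2-fold higher, 4 lower and a median of 0.00. These 7 held under all 4 scalings. PDF1.2, a plant defensin and marker of the jasmonate and ethylene branch, read 37.8 on overexpressor mock, 90.3 on overexpressor ABA, 52.2 on vector mock and 20.4 on vector ABA, with log2 differences of 1.26 and -1.36. PDF1.2b read 37.0 and 92, then 40.3 and 16.8, with 1.32 and -1.26. The 2 genes are near-identical copies, and their signals are not independent. PTI1-4, a protein kinase, was higher with ABA in both genotypes, at 86.6 and 226, then 43.9 and 192 (log2 1.38 and 2.13). F6'H1 (AT3G13610), the enzyme that commits phenylpropanoids to the coumarin scopoletin, read 391 and 95.3 in the overexpressor and 6.60 and 78.2 in vector plants, 4.1-fold lower in the overexpressor (log2 -2.04) beside 2.56. UGT76B1, which glucosylates isoleucic acid and affects salicylate defence, read 129.6 and 37.0, then 8.11 and 45.2, with -1.81 and 1.77. For both, overexpressor mock was by far the highest array, vector mock lay under the floor, and the ABA arrays of the genotypes lay close together. MYC4, a bHLH factor of jasmonate responses, read 87.0 and 31.6, then 61.1 and 34.5 (log2 -1.46 and -0.82). Its relative MYC3 had log2 -0.93 and 0.44. THI2.2 was under the floor on both overexpressor arrays and has no fold. None of 6 WRKY genes was past 2-fold, and the highest were WRKY6 (0.91) and WRKY53 (0.82).

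Chaperones fold proteins and guard them in heat, and those on the list were mostly lower by less than 2-fold. Genes without a matching name are not on the list, so any chaperones among them are not counted. Of the 16 listed and measured, 15 had log2 differences below 0, the median was -0.51, and 1 was at least 2-fold lower and 1 higher. The median was -0.51 with quantile normalization and with loess and -0.71 with median centring, and 15 members stayed below 0 under median centring. In vector plants the median was 0.04, and 9 of the 16 were above 0. Cpn60beta2, a subunit of the plastid chaperonin, read 312 and 137 in the overexpressor and 284 and 377 in vector plants (log2 -1.18 and 0.41). FKBP65 (AT5G48570), a peptidylprolyl isomerase induced by heat, read 1459.9 and 742, then 162 and 495 (log2 -0.98 and 1.61). Hop3, which links Hsp70 to Hsp90, read 166 and 84.9, then 61.9 and 104 (log2 -0.97 and 0.75). Overexpressor mock was the highest of the 4 arrays for 11 of the 16 chaperones, against 23.5% of all genes. HSA32, which prolongs acquired heat tolerance, was the exception on the higher side at log2 1.11, or 0.91 with quantile normalization.

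**Figure D5:**
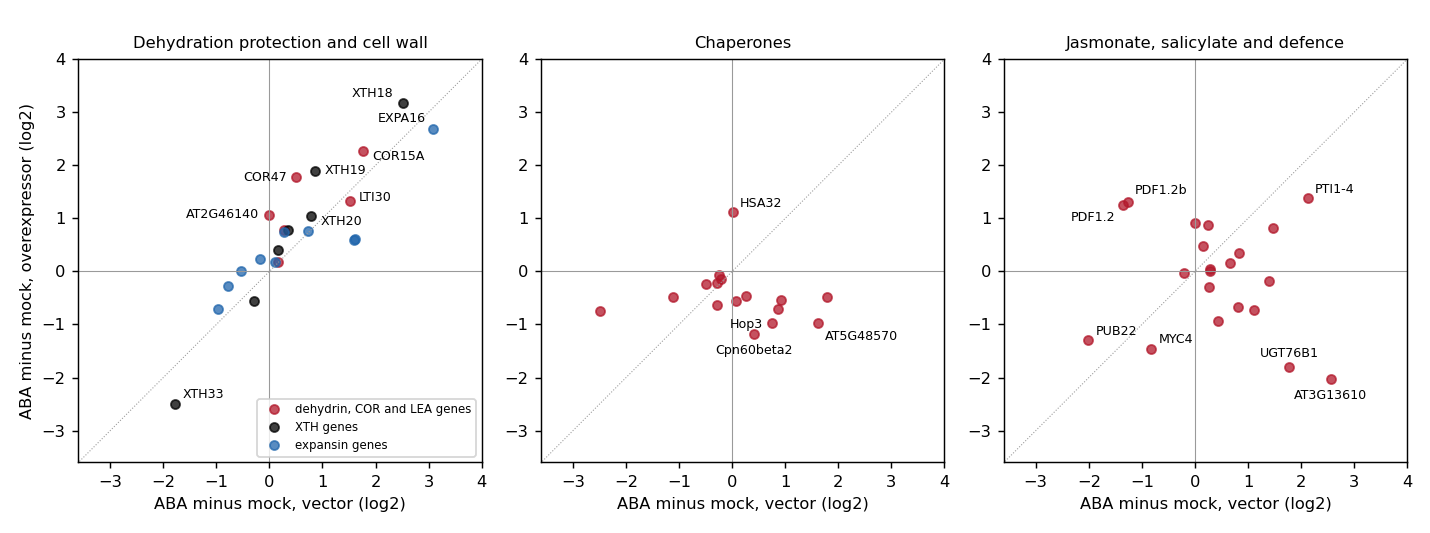
Log2 difference of ABA minus mock in the overexpressor (y axis) against that in vector plants (x axis) for members of 5 gene lists, with equal differences on the dotted line. XTH18, EXPA16 and COR15A lie far to the upper right, most chaperones lie below 0 in the overexpressor on both sides of 0 in vector plants, and PDF1.2, PDF1.2b, UGT76B1 and AT3G13610 lie in opposite corners.

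Photosynthesis genes stood slightly on the higher side in the overexpressor, by an amount that depended on the scaling. Of 32 plastid genes for photosystems, cytochromes and ATP synthase, 30 had log2 differences above 0, against 23 with quantile normalization and 21 with median centring. Their median was 0.31 and came to 0.12 with quantile normalization, 0.15 with loess and 0.12 with median centring. Only psbN was past 2-fold, reading 88.2 and 247 in the overexpressor and 267 and 223 in vector plants (log2 1.48 and -0.26). Of 19 plastid genes for ribosomal proteins and RNA polymerase, rpl36 alone was past 2-fold at 1.28, and the median was 0.30. None of 10 plastid NDH genes and none of 23 nuclear genes for photosystems, light harvesting and chlorophyll was past 2-fold, and their medians of 0.27 and 0.33 came to 0.03 and 0.10 with quantile normalization. In vector plants the medians of these 4 lists ran from -0.36 to -0.10. Overexpressor mock was the lowest array for 27 of the 32 and 17 of the 23, and for 28.9% of all genes. In leaves fewer cells of a type and less RNA per cell cannot be told apart. Over the 171 genes with a mean signal of 1000 or more, of any kind, 121 were above 0, with a median of 0.22 that came to 0.07 with quantile normalization.

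Hormone and transcription factor genes past 2-fold lay on both sides. WES1, an enzyme that conjugates auxin to amino acids, read 33.0 and 126 in the overexpressor and 41.9 and 149 in vector plants, 3.81-fold higher in the overexpressor (log2 1.93 and 1.83). HAT2, an auxin-induced homeodomain factor, read 187 and 91.9, then 230.3 and 109 (log2 -1.02 and -1.08). Their differences had the same direction in both genotypes, and they were the only ones of 10 auxin genes past 2-fold. BAT1, an acyltransferase that acts on brassinosteroids, read 5.24, under the floor, and 47.8, at least 3.60-fold higher, against 49.5 and 28.3 in vector plants, and was the only one past 2-fold of 15 genes for gibberellin, cytokinin, ethylene and brassinosteroid. Of 13 bZIP genes none was at least 2-fold higher, BZIP61 was lower with 108 and 35.0 in the overexpressor and 155 and 54.1 in vector plants (log2 -1.63 and -1.52), and HYH, a partner of HY5 in light signalling, was lower too (log2 -1.26 and 0.39). FHL, which carries phytochrome A into the nucleus, had log2 1.41 in the overexpressor and 0.09 in vector plants. Of 13 bHLH genes, NAI1 read 11, under the floor, and 48.1, at least 3.63-fold higher. SPT had log2 1.23, or 0.96 with quantile normalization. LHW, needed for vascular patterning, read 66.4 and 25.8, then 22.9 and 25.5, so that overexpressor mock stood alone (log2 -1.36 and 0.15). AGL24 and NGA4 were the higher ones among 16 MADS-box, NGATHA, YABBY and homeodomain genes (log2 1.2 and 1.08), and neither kept 2-fold under quantile normalization, at 0.91 and 0.80. Among 7 secreted signalling peptides, STOMAGEN, which promotes stomata, read 29.6 and 14.3 (log2 -1.05 and -0.36), and RALFL24 had log2 -1.0 and -0.99. RALFL24 did not keep 2-fold under all 4 scalings.

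Genes of several metabolic pathways, and of their control, are given next, list by list. DEWAX (AT5G61590), a repressor of wax synthesis, read 994 on overexpressor mock, 245 on overexpressor ABA, 1481 on vector mock and 152 on vector ABA, 4.05-fold lower in the overexpressor (log2 -2.02 beside -3.28). AAE16, an acyl-activating enzyme, had log2 -1.13, and these were the 2 of 8 genes for fatty acids, wax and cutin past 2-fold. Purine and ureide breakdown frees the nitrogen of purines, and 2 of its 5 measured genes were lower. ALN, the allantoinase, read 204 and 80.2 in the overexpressor and 335 and 64.8 in vector plants (log2 -1.35 and -2.37). FAC1, the AMP deaminase, read 200.2 and 61.9, then 196 and 109 (log2 -1.69 and -0.85). AAH, which acts on allantoate, had -0.79, while URE and UGLYAH had 0.29 and 0.68. Both mock arrays stood above both ABA arrays for ALN and FAC1. GME, an epimerase of GDP-mannose on the way to ascorbate, read 593 and 273, then 629 and 348 (log2 -1.12 and -0.85), and was the only one of 5 genes on its list past 2-fold. APL3, a subunit of the enzyme that makes ADP-glucose for starch, had log2 -1.03, just past 2-fold, but not under all 4 scalings. Of 14 sugar transporter genes SWEET16, above, was at least 2-fold higher and SWEET17, with log2 -1.0, lower. SWEET17 had -0.97 with quantile normalization. ALDH7B4, a stress-induced aldehyde dehydrogenase, read 303 and 691, then 107 and 499 (log2 1.19 and 2.22), as the only one of 8 past 2-fold. With median centring ALDH7B4 fell just under 2-fold in the overexpressor. The neighbouring genes MSRB6 and MSRB5, for methionine sulfoxide reductases, went opposite ways in the overexpressor, with log2 1.11 and -1.08 beside 1.78 and 0.65 in vector plants. With median centring MSRB6 had 0.92 in the overexpressor.

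Single genes of membrane traffic, RNA machinery and other cell functions were past 2-fold, in directions that differed by list. Over all genes 5.01% were higher and 3.55% lower. ARLA1C, a small GTPase of the ARF-like family, read 443 and 138 in the overexpressor and 187 and 153 in vector plants (log2 -1.68 and -0.30), and the other 35 membrane traffic genes were under 2-fold. NRPB6B, a subunit of RNA polymerase, read 214 and 93.8, then 100.4 and 114 (log2 -1.19 and 0.18). LSM6B, of an RNA-binding ring, read 88.0 and 41.2, then 43.2 and 45.7 (log2 -1.09 and 0.08). For all 3 overexpressor mock stood above the other arrays. MED31, of the Mediator complex, had log2 1.18 but did not keep 2-fold under all 4 scalings. On its list of 24 genes for RNA processing and transcription machinery, 1 was at least 2-fold higher and 2 lower. TET5, a tetraspanin of the plasma membrane, read 11.4, under the floor, and 43.5, at least 3.28-fold higher, against 51.8 and 38.5 in vector plants. CML30, a calmodulin-like protein, was at log2 -1.40 and -1.20. Of 15 serine carboxypeptidase-like genes, scpl33 had 1.28 and SCPL34 -1.05, and neither kept 2-fold under all 4 scalings. No member was past 2-fold among 11 cytochrome P450, 7 glutamate receptor-like, 7 tubulin, 6 subtilase and 5 histone genes. The 3 reference genes read log2 0.69 (ACT11), 0.28 (PEX4) and -0.19 (GAPC2).

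Set beside the vector plants, the genes past 2-fold overlapped in part. With ABA, 355 genes passed 2-fold upward in vector plants (4.85%) and 390 downward (5.33%). Of the 367 higher in the overexpressor, 71 were also at least 2-fold higher in vector plants, which is 19.3% of the one list and 20.0% of the other, and 28 (7.63%) were at least 2-fold lower there. The median difference of the 367 in vector plants was -0.01, and 181 (49.3%) had the same sign. Of the 260 lower, 76 were also at least 2-fold lower in vector plants, 29.2% of the one list and 19.5% of the other, 14 (5.38%) were at least 2-fold higher, and 188 (72.3%) had the same sign, with a median of -0.44. Among the 162 higher under all 4 scalings, 57 (35.2%) were at least 2-fold higher in vector plants too and 99 (61.1%) had the same sign. Among the 248 lower under all 4, 74 (29.8%) were also lower and 179 (72.2%) had the same sign. The shares of all genes above and below 0 in vector plants were not counted. Vector mock was the highest of the 4 arrays for 32.6% of all genes and vector ABA for 16.0%. The same-sign shares of the higher and lower genes can therefore not be compared with each other. The 2 comparisons share no array. Whether the genotypes differed in their response to ABA was not tested.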

How the data were processed

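Transcripts were measured on 4 ATH1 arrays of rosette leaf RNA, 1 array per combination of genotype and spray. The deposited values are 1 linear signal intensity per probe set. They come from MAS5, per the submitters' processing notes, and its version is not given in the sources used here. The table holds 22810 probe sets, 64 of them controls. The platform annotation pairs 13513 with 1 gene and 503 with several, which were left unnamed; 13436 matched the TAIR10.1 RefSeq gene table, used for names and gene order only. Sequences were not used here, so the planned search of promoters for motifs was not run.

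A common trimmed mean of 100, leaving out controls and 2% at either end, was set on every array, values under the pooled 25th percentile (13.3) were set to that floor, and differences were taken on the log2 scale. A mean signal of at least the pooled 40th percentile (29.0) was required. Where a gene had several probe sets, as 73 did, the one with the highest mean was taken. A fold that involves the floor is written "at least". A difference was called at 2-fold, with no p-value, since each group has 1 array; the precision of a single array is unknown from these files. Alternatives were quantile normalization, a loess curve over the overexpressor arrays (span 0.4), median centring, no rescaling, other floors and filters, and all probe sets. The rule for named genes was the 15 highest and 15 lowest among genes at least 2-fold changed in 1 direction under trimmed-mean, quantile, loess and median scaling, and for each list its 2 highest and 2 lowest members. Other members given in the text, and genes outside this rule, were chosen after their values were seen. The comparison, its 44 gene lists (511 different genes) and the rule were chosen with earlier results of these data known, and the matching of symbols to lists was tightened after values were seen, so a list gives no independent support. Of the genes measured, 6269 have a locus code and no symbol. They were given no role, except those written above with both a name and a locus code. The steps were tested on simulated data. Python 3.11.15, numpy 2.4.6, pandas 2.3.3, statsmodels 0.14.6 and matplotlib 3.10.9 were used.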

Additional observations from a re-analysis of the deposited data

Results flagged for a closer look

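For 4 named genes the signal with ABA differed from mock by at least 2-fold in opposite directions in the genotypes, 1 array against 1 in each. F6'H1 (AT3G13610) had a log2 difference of -2.04 in the overexpressor and 2.56 in vector plants, which is -4.60 apart. UGT76B1 had -1.81 and 1.77, which is -3.58 apart. PDF1.2 had 1.26 and -1.36, 2.61 apart, and PDF1.2b had 1.32 and -1.26, 2.58 apart; these genes are near-identical copies and count as 1 observation. The difference between the genotypes was not tested for any of them, since no group has a replicate. For the first of these genes vector mock lay under the floor at 6.60, and for UGT76B1 at 8.11, so their vector differences start from the floor of 13.3.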

How the results depend on the processing

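The count of genes at least 2-fold higher, 367, was 219 with quantile normalization, 204 with loess, 208 with median centring, 195 with the floor at the 40th percentile, 829 of 13356 genes with no filter on dim genes, 108 of 4669 with the filter at the 60th percentile and 687 over all probe sets. The count lower, 260, was 419 with median centring, 136 with the filter at the 60th percentile and 506 over all probe sets. The filters and the use of all probe sets also change how many features are counted; the cause of these shifts was not tested. The remaining settings kept both counts within 1.5 times, with 365 and 261 for unscaled signals, 368 and 263 without a floor, and 378 and 239 with the filter on the overexpressor arrays; the count lower was 316 with quantile normalization, 329 with loess, 195 with the higher floor and 383 with no filter. None of the 82 named genes past 2-fold changed sign under the alternatives run for them. The 15 highest and 15 lowest were chosen for keeping 2-fold under quantile, loess and median scaling, so these settings could not change their sign. All 82 started at 2-fold or more, so the absence of sign changes is no measure of how firm the values are. Of 1358 values for the 194 named genes under those alternatives, 29 moved by over 0.5 on the log2 scale, 25 of them with the higher floor and 4 without a floor. Of the list medians under the alternatives, 17 moved by over 0.2, 11 of them with the filter at the 60th percentile, where that of the sugar transporters went from 0.44 to -0.37, and 3 with quantile normalization. The medians of 2 of the 44 lists changed sign with quantile normalization and of 11 with median centring. The search for promoter motifs was not run, since no sequence was used here. No paired analysis was possible because each group holds 1 array. Signals near the floor limit what the dim genes can show, and 1 line, 1 pool per spray and 1 time leave no estimate of the spread between plants.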
